A study of Mus musculus with 43 samples.

Results

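The EGF (epidermal growth factor) family of the mouse intestinal epithelium is described here by 10 genes, taken by symbol from 23951 genes of the bulk expression tables and 54307 gene rows of the single-cell matrices. They are the 5 ligands Areg, Ereg, Hbegf, Btc and Tgfa, the 3 receptors Egfr, Erbb2 and Erbb3, and the 2 inhibitors Lrig1 and Errfi1. All 10 were found in both data types.

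EGF family ligands are made as membrane-bound precursors that metalloproteases release. The ligands listed above bind EGFR or ERBB4, which pair with each other or with ERBB2 and ERBB3. The receptors pass the signal to the RAS and MAP kinase cascade, a pathway that keeps crypt stem cells of the small intestine dividing. LRIG1, a membrane protein known as a marker of crypt stem cells, lowers the amount of ERBB receptors, and ERRFI1 (also called MIG6) binds the EGFR kinase domain and blocks it.

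Bulk RNA came from primary intestinal organoids, epithelial cultures grown from the gut of wild-type (WT) C57BL/6 mice, in 6 groups of 3 libraries. One condition was not irradiated and was collected on day 7 (D7), and the others received 4 Gy of ionizing radiation (IR) on day 4 and were collected on D7 or on day 11 (D11). In each condition the organoids were given vehicle or 2 ng/mL of TGFB1, the cytokine transforming growth factor beta 1, on day 6 for 24 h, so that at D11 the treatment had ended days before. Single-cell RNA came from WT C57BL/6 organoids given 4 Gy on day 4 and collected on day 8 after 6, 15 or 24 h of 1 ng/mL TGFB1, or after 24 h of vehicle (labelled 0 h), with 1 library per time. It also came from crypt cells of the proximal small intestine of Mki67tm1.1Cle/J mice, which carry a fluorescent Ki67 reporter, sorted as Ki67-RFP+ DAPI- cells, in 2 libraries taken 56 h after 12 Gy and 1 library of a non-irradiated littermate. Crypts of irradiated mice passed a 100 µm strainer and control crypts a 70 µm strainer, and this step and irradiation cannot be told apart. Nothing in the labels says whether replicates were separate cultures, so p-values measure only the spread between these libraries, which may be technical.

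The bulk values are FPKM, fragments scaled to transcript length and library size, and the read depth behind them is unknown. All 6 epithelial markers searched (Epcam, Cdh1, Krt8, Krt18, Vil1, Cdx2) were above 1 FPKM in every group. The 6 mesenchymal markers summed to 0.0796 to 4.76 FPKM and the 3 endothelial markers to at most 0.228 FPKM. The single-cell libraries held 2218 to 4283 kept cells per organoid library and 699 to 1846 per crypt library, and no pair of libraries shared more than 1 cell barcode.

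The 250 bases before the annotated start site were available for 7 of the 10 genes from RefSeq (GRCm38.p6), with 8 entries because Errfi1 has a second start site (by coordinate). The sequences below are those of the 3 entries with a motif, of Egfr, which rose most with TGFB1 at D7, and of Lrig1, which fell in both D7 conditions, given 5′ to 3′ on the gene's own strand with motifs in capitals. Areg lies at chr5:91139349-91139598 (plus strand), Errfi1 (second start site) at chr4:150854820-150855069 (plus strand), Tgfa at chr6:86194972-86195221 (plus strand), Egfr at chr11:16751953-16752202 (plus strand) and Lrig1 at chr6:94700146-94700395 (minus strand).
Areg: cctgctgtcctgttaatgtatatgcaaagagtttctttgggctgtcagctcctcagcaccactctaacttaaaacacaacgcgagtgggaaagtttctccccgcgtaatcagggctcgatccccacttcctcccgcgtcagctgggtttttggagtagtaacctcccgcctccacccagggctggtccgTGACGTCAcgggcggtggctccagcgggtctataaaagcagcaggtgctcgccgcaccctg
Errfi1: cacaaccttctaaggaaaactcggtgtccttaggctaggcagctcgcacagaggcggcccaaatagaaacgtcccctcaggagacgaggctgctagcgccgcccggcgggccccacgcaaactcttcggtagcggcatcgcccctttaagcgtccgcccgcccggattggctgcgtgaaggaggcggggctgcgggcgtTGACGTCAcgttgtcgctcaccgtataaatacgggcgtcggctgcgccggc
Tgfa: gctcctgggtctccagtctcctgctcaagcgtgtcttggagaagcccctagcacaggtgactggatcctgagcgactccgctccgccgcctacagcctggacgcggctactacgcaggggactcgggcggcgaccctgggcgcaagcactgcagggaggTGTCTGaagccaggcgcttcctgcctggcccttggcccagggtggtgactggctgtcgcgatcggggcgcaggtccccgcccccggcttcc
Egfr: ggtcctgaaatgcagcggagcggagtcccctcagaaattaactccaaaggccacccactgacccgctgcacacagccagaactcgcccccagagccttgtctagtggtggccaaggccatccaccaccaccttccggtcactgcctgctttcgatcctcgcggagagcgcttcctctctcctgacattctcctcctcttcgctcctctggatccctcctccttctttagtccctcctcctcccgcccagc
Lrig1: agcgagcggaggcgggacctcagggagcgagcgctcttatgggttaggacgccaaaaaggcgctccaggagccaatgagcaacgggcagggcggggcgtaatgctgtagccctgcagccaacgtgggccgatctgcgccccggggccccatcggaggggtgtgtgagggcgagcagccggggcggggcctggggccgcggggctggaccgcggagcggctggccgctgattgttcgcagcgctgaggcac

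The cAMP response element TGACGTCA, searched on both strands, was present before Areg, 54 to 61 bases from the start site, and before the second start site of Errfi1, 44 to 51 bases from it. This motif was found in 1.55% of 32851 promoters of that length. The SMAD motif CAGACA, the short element bound by the transcription factors that TGFB1 activates, was present as TGTCTG before Tgfa, 86 to 91 bases from the start, and in 17.1% of all promoters. The AP-1 motif TGANTCA (6.75% of promoters), the TEAD motif ACATTCC (3.25%) and the SMAD palindrome GTCTAGAC (0.167%) had no match in the 8 entries. These are letter matches in a short window and say nothing of binding. In the GRCm38 gene order Epgn, Ereg, Areg and Btc are neighbours.

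TGFB1 raised most of the ligands and Egfr in D7 organoids and lowered Lrig1. In non-irradiated organoids 7 of the 10 genes rose, 2 fell (Ereg and Lrig1) and Erbb2 did not pass (limma on log2(FPKM + 1), Benjamini-Hochberg adjusted p under 0.05 over all genes tested). In irradiated D7 organoids 8 rose, Lrig1 fell and Erbb2 did not pass. At D11, after the treatment had ended, 6 rose, Erbb2 and Erbb3 fell, and Areg and Lrig1 did not pass. Such calls were common: 68.2% of 11330 genes were called in non-irradiated organoids (33.3% higher, 34.9% lower), 75.5% of 11258 in irradiated D7 organoids (35.8% higher, 39.7% lower) and 63.9% of 11479 at D11 (32.3% higher, 31.6% lower), so the share of the 10 genes that was called says little by itself. The median log2 change of the 10 genes was 0.56, 1.05 and 0.30 in the 3 conditions. That of all genes tested was −0.02, −0.03 and 0.01. These 10 genes were chosen with earlier results of these data known. Such contrasts, here and in the difference tests below, therefore only describe the 10 genes and are not support for a shift of the family. Calls of at least 2-fold were made for 3 genes without irradiation, all higher, where 8.44% of all genes passed that bar (5.52% higher). In irradiated D7 organoids 5 genes were higher and 1 lower by that much (13.2% of all genes, 7.79% higher and 5.39% lower), and at D11 1 gene was higher (13.7%, 5.67% higher).

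**Figure D1:**
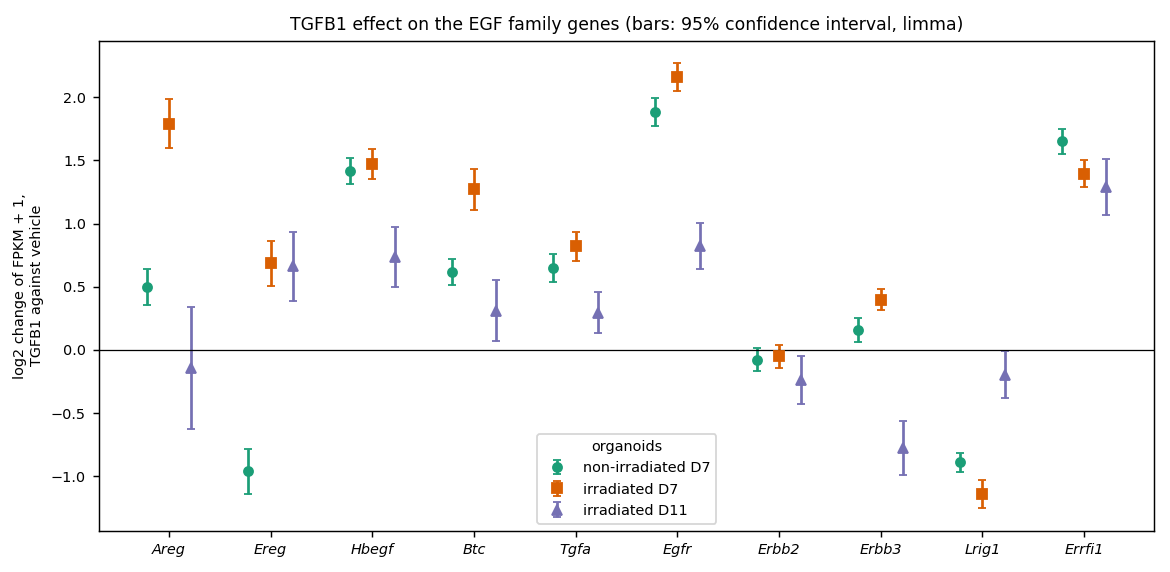
Log2 change of FPKM + 1 between TGFB1 and vehicle libraries for the 10 genes, with 3 libraries per group, in non-irradiated D7 (circles), irradiated D7 (squares) and irradiated D11 (triangles) organoids; bars are 95% confidence intervals from limma. Egfr has the largest change in both D7 conditions (1.88 and 2.16), Ereg changes sign between them, and the intervals of Areg and Erbb2 include 0 in 1 and 2 of the 3 conditions.

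Areg, which encodes amphiregulin, was the most abundant ligand transcript in every group on the FPKM scale. In bulk RNA, fewer cells of a type and less RNA per cell cannot be told apart, here and in all bulk values that follow. In non-irradiated organoids its level was 221, 241 and 235 FPKM with vehicle and 295, 352 and 342 FPKM with TGFB1. In irradiated D7 organoids it was 47.5, 51.1 and 45.8 FPKM with vehicle and 157, 156 and 195 FPKM with TGFB1. The vehicle and TGFB1 libraries were separate at D7 with and without irradiation, and the log2 changes were 0.50 (SE 0.0637, adjusted p = 9.66e-05) and 1.79 (SE 0.0850, adjusted p = 1.31e-07). At D11 the levels were 74.9, 102 and 69.0 FPKM with vehicle and 90.2, 78.3 and 55.2 FPKM with TGFB1, the groups overlapped, and the log2 difference was −0.14 (SE 0.207, adjusted p = 0.564). Its sign turned to 0.02 without vehicle replicate 2 and to 0.05 without TGFB1 replicate 3.

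Ereg, encoding epiregulin, was the scarcest of the 5 ligands and the one whose direction differed between conditions. Its levels without irradiation were 2.80, 3.16 and 3.18 FPKM with vehicle and 0.967, 1.08 and 1.19 FPKM with TGFB1. In irradiated D7 organoids they were 2.13, 2.45 and 2.48 FPKM with vehicle and 4.36, 4.01 and 4.79 FPKM with TGFB1. The libraries did not overlap in either condition, but TGFB1 was below vehicle without irradiation (log2 change −0.96, SE 0.0801, adjusted p = 1.31e-06) and above it after irradiation (0.68, SE 0.0814, adjusted p = 2.08e-05). At D11 Ereg stood at 1.61, 1.97 and 1.82 FPKM with vehicle and at 4.04, 3.45 and 2.86 FPKM with TGFB1, again without overlap (0.66, SE 0.122, adjusted p = 0.001). The added pseudocount of 1 makes these log2 changes smaller than those of the FPKM themselves.

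Hbegf, which encodes heparin-binding EGF-like growth factor, rose in all 3 conditions. Its levels were 15.6, 15.5 and 16.2 FPKM against 41.2, 45.2 and 45.0 FPKM without irradiation (log2 change 1.42, SE 0.0453). They were 7.20, 8.04 and 7.39 FPKM against 22.6, 22.1 and 23.2 FPKM in irradiated D7 organoids (1.47, SE 0.0536). At D11 they were 8.91, 10.1 and 12.2 FPKM against 18.3, 18.5 and 16.8 FPKM (0.74, SE 0.107, adjusted p = 0.000216). No vehicle library reached a TGFB1 library of its condition, and the D7 adjusted p-values were 6.83e-10 and 2.67e-09.

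Btc, encoding betacellulin, had 35.5, 36.8 and 34.9 FPKM with vehicle and 51.8, 57.3 and 57.2 FPKM with TGFB1 in non-irradiated organoids. In irradiated D7 organoids it had 8.26, 7.64 and 8.04 FPKM against 21.3, 18.3 and 22.6 FPKM. The libraries were separate in both (log2 changes 0.62, SE 0.0455, and 1.27, SE 0.0739). At D11 the levels were 17.9, 18 and 14.6 FPKM against 22.3, 22.6 and 18.3 FPKM, separate by a narrow margin, with a log2 change of 0.31 (SE 0.108, adjusted p = 0.0289). This last call was lost without the filter on low values (adjusted p = 0.0591) and without vehicle replicate 3, TGFB1 replicate 1 or TGFB1 replicate 2 (adjusted p = 0.0971, 0.097 and 0.102). Tgfa, encoding transforming growth factor alpha, a ligand of EGFR in spite of its name, had similar vehicle levels throughout: its vehicle libraries lay between 13.6 and 15.4 FPKM in all 3 conditions. With TGFB1 they lay between 22.4 and 25.4 FPKM without irradiation, 24.8 and 26.9 FPKM in irradiated D7 organoids and 17.5 and 18.8 FPKM at D11 (log2 changes 0.65, 0.82 and 0.30).

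Summed over the 5 ligands, the level was 302 ± 11.1 FPKM (SD, n = 3) with vehicle and 454 ± 37.2 with TGFB1 in non-irradiated organoids, 80.1 ± 2.31 and 243 ± 25.9 in irradiated D7 organoids, and 126 ± 18.1 and 135 ± 21.4 at D11. Areg made up 54.6 to 77.0% of the sum in the 6 groups, lowest with TGFB1 at D11, where the mean of Areg was below and the sum above that with vehicle.

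Among the receptors, Egfr alone had a change of at least 2-fold with TGFB1. It encodes the receptor that all 5 ligands bind. Its levels were 10.3, 9.77 and 10.4 FPKM with vehicle and 38.3, 43.0 and 39.3 FPKM with TGFB1 in non-irradiated organoids, and 7.60, 7.33 and 7.50 against 35.4, 36.4 and 38.9 FPKM in irradiated D7 organoids. The log2 changes were 1.88 (SE 0.0506, adjusted p = 1.89e-10) and 2.16 (SE 0.0495, adjusted p = 1.64e-10), and the groups were far apart. At D11 the levels were 11.1, 10.2 and 10.3 FPKM against 20.5, 17.8 and 20.02 FPKM, still separate (0.82, SE 0.0810, adjusted p = 1.69e-05).

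Erbb2, which encodes the receptor that has no ligand of its own and pairs with the others, changed little. Its 18 libraries lay between 36.5 and 61.6 FPKM. The log2 differences were −0.08 (95% confidence interval −0.17 to 0.01, adjusted p = 0.108) and −0.05 (−0.14 to 0.04, adjusted p = 0.28) at D7, intervals that leave out a change of 1.5-fold. With quantile normalization the first passed the threshold (−0.12, adjusted p = 0.0151). At D11 the difference was −0.24 (SE 0.0858, adjusted p = 0.0342), a call lost without the filter on low values (adjusted p = 0.055) and without any 1 of vehicle replicate 3 and TGFB1 replicates 1, 2 and 3 (adjusted p = 0.056 to 0.132). Erbb3, encoding the kinase-impaired receptor of neuregulins, had 37.4, 38.0 and 37.9 FPKM against 39.8, 43.9 and 43.2 FPKM without irradiation and 42.4, 41.5 and 41.1 against 53.5, 55.3 and 56.9 FPKM in irradiated D7 organoids. It rose in both (log2 change 0.16, adjusted p = 0.0067, and 0.40, adjusted p = 4.21e-06) and fell at D11, from 70.0, 54.8 and 61.0 FPKM to 34.2, 34.9 and 37.9 FPKM (−0.77, SE 0.0947, adjusted p = 7.08e-05).

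The inhibitors went in opposite directions. Lrig1 fell from 77.3, 75.4 and 77.9 FPKM to 40.7, 41.4 and 40.8 FPKM in non-irradiated organoids (log2 change −0.89, SE 0.0325, adjusted p = 1.81e-09). In irradiated D7 organoids it fell from 39.9, 38.8 and 39.7 FPKM to 17.8, 18.3 and 16.1 FPKM (−1.14, SE 0.0513, adjusted p = 1.14e-08), and its TGFB1 libraries were the lowest of all 18. At D11 the levels were 56.3, 48.6 and 50.7 FPKM against 47.0, 46.7 and 41.6 FPKM, separate but not passing the threshold (−0.20, SE 0.0832, adjusted p = 0.0624), and they passed it with median-ratio scaling (adjusted p = 0.047) and with all 18 libraries in 1 fit (adjusted p = 0.00582).

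Errfi1 rose in every condition. Its levels were 32.2, 29.6 and 30.7 FPKM against 95.5, 104 and 97.6 FPKM without irradiation, 29.5, 29.6 and 30.5 against 78.2, 76.4 and 86.01 FPKM in irradiated D7 organoids, and 24.1, 23.0 and 26.8 against 65.8, 66.1 and 53.4 FPKM at D11. The log2 changes were 1.65, 1.39 and 1.29 (SE 0.0442, 0.0484 and 0.0983), and the D11 change was the only one of the 10 genes that was called and above 2-fold at that day (adjusted p = 3.19e-06).

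**Figure D2:**
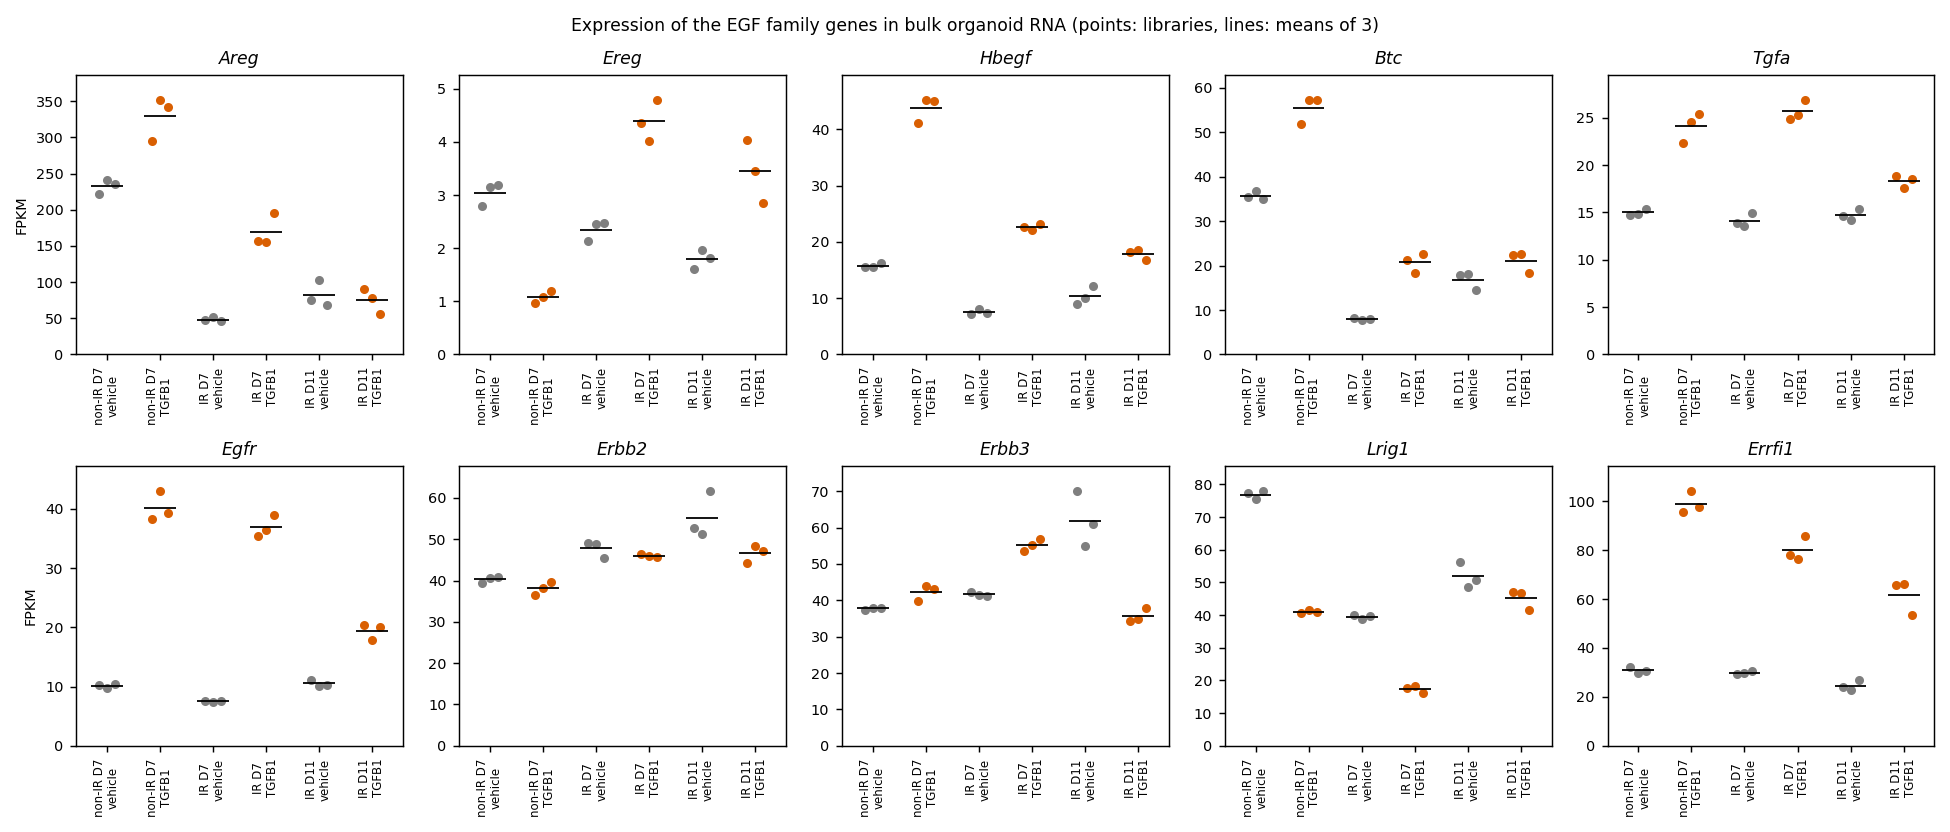
FPKM of each of the 10 genes in the 18 bulk libraries, with vehicle in grey and TGFB1 in orange; points are libraries and lines are means of 3, and each panel has its own scale from 0. Areg and Btc are lowest in irradiated D7 vehicle organoids (45.8 to 51.1 and 7.64 to 8.26 FPKM), and Lrig1 is lowest in irradiated D7 TGFB1 organoids.

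The difference between the TGFB1 effects with and without irradiation at D7 was tested directly over 12 libraries. Of the 10 genes 5 had a higher effect after irradiation, 2 a lower one and 3 did not pass, where 25.3% of 11411 genes were higher and 27.8% lower (53.1% in either direction). Higher and lower refer to the signed log2 change, here and at D11. A lower effect on Lrig1 is thus a larger fall (−0.89 without and −1.14 after irradiation). The median difference was 0.21 over the 10 genes and −0.01 over all genes. Ereg and Areg, 2 of the 10, differed by at least 2-fold, as did 4.38% of all genes (2.53% higher). Ereg differed most (1.65, SE 0.109, adjusted p = 2.48e-08), followed by Areg (1.29, SE 0.122, adjusted p = 2.48e-06) and Btc (0.65, SE 0.0921, adjusted p = 3.79e-05). Egfr (0.28), Erbb3 (0.24), Lrig1 (−0.25) and Errfi1 (−0.26) differed by smaller amounts that passed. The call of Errfi1 was lost with all 18 libraries in 1 fit (adjusted p = 0.0559). Tgfa (0.17, adjusted p = 0.0621), which passed with median-ratio scaling (adjusted p = 0.0203), without TGFB1 replicate 3 of the non-irradiated organoids (0.0338) and without vehicle replicate 3 of the irradiated ones (0.0318), Hbegf (0.05, adjusted p = 0.539) and Erbb2 (0.03, adjusted p = 0.719) did not pass.

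The effect at D11 was set against that at D7 over the 12 irradiated libraries. The effect was lower at D11 for 6 genes, higher for Lrig1 and did not differ past the threshold for 3, where 31.5% of 11456 genes were higher and 33.0% lower (64.5% in either direction). The median difference was −0.63 over the 10 genes and −0.01 over all genes. For 3 genes the effect was lower by at least 2-fold, where 16.4% of all genes passed that bar (6.83% higher and 9.58% lower). These were Areg (−1.93, SE 0.256, adjusted p = 5.12e-05), Egfr (−1.34, SE 0.0907, adjusted p = 3.05e-08) and Erbb3 (−1.17, SE 0.105, adjusted p = 3.99e-07), and smaller differences passed for Btc (−0.96), Hbegf (−0.73) and Tgfa (−0.52). The signed effect on Lrig1 was higher at D11 (0.94, SE 0.0975, adjusted p = 1.51e-06), which is a smaller fall (−1.14 at D7 and −0.20 at D11). For Erbb3 a rise at D7 (0.40) stood against a fall at D11 (−0.77). Ereg (−0.02, 95% confidence interval −0.34 to 0.29), Errfi1 (−0.11, −0.35 to 0.14) and Erbb2 (−0.19, −0.39 to 0.02) did not pass. Erbb2 passed with median-ratio scaling (adjusted p = 0.0488) and without vehicle replicate 2 of D11 (adjusted p = 0.0444). Both difference tests share libraries with the TGFB1 comparisons above and with each other, so they are not separate evidence.

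Several marker lists of epithelial states moved with TGFB1 in the same libraries. The 8 stem markers (Lgr5, Olfm4, Ascl2 and others) summed to 1055 to 1147 FPKM with vehicle and 813 to 841 with TGFB1 without irradiation, to 1022 to 1056 against 490 to 568 in irradiated D7 organoids, and to 645 to 834 against 848 to 1012 at D11, lower at D7 and higher at D11. The 9 enteroendocrine markers summed to 454 to 481 against 452 to 475 FPKM, 577 to 634 against 1350 to 1411, and 973 to 1153 against 403 to 500. The 9 regenerative markers (Clu, Ly6a, Anxa1 and others) summed to 599 to 649 FPKM with vehicle and 4292 to 4460 with TGFB1 without irradiation, to 561 to 593 and 6314 to 6845 in irradiated D7 organoids and to 476 to 604 and 6030 to 7122 at D11. The 6 mitotic markers went from 278 to 281 down to 142 to 144 FPKM, from 312 to 315 down to 74.6 to 87.8, and at D11 from 295 to 328 up to 354 to 372. S-phase markers, also 6, summed to 280 to 287 against 287 to 301 FPKM without irradiation, where the ranges overlapped. They summed to 240 to 246 against 95.6 to 111 FPKM in irradiated D7 organoids and to 247 to 287 against 271 to 279 FPKM at D11. The 10 enterocyte markers went from 3308 to 3453 down to 1476 to 1603 FPKM without irradiation and from 14240 to 15220 up to 20900 to 21730 in irradiated D7 organoids, and they summed to 3420 to 6063 against 2195 to 2578 FPKM at D11. The 6 immune markers summed to 32.5 to 37.9 against 103 to 110 FPKM without irradiation and to 5.17 to 6.94 against 14.3 to 15.8 FPKM in irradiated D7 organoids. At D11 these sums were 6.15 to 9.97 against 12.5 to 15.1 FPKM, and 2 or 3 of the 6 immune markers were above 1 FPKM in each group. The part of these marker lists in the changes of the 10 genes was not tested.

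Levels with and without irradiation lie in tables that may have been scaled separately, so they are given without a test. With vehicle at D7, Areg was 4.76-fold and Btc 4.09-fold lower in irradiated than in non-irradiated organoids (ratio of FPKM + 1), with separate libraries. Those 2 of the 10 genes passed the bar of separate libraries and at least 2-fold, a bar passed by 15.5% of 11235 genes (8.03% higher and 7.44% lower), while separate libraries alone were the rule (85.0% of genes). Hbegf (1.96-fold lower) and Lrig1 (1.92-fold lower) came close to it, and Tgfa and Errfi1 overlapped. With TGFB1 at D7, Ereg was 2.59-fold higher and Btc 2.60-fold and Lrig1 2.28-fold lower after irradiation, 3 of 10 genes where 18.7% of 11403 genes passed (9.73% higher and 8.92% lower). Separate libraries alone were found for 84.1% of genes (45.7% lower). In irradiated vehicle organoids no gene of the 10 differed 2-fold between D11 and D7, with Btc (1.99-fold higher) and Areg (1.69-fold higher) nearest, where 6.79% of 11264 genes passed (3.51% higher and 3.28% lower) and 66.9% had separate libraries (33.7% higher). With TGFB1, Areg was 2.26-fold lower and Lrig1 2.51-fold higher at D11 than at D7, 2 of 10 genes where 14.8% of 11381 passed (6.32% higher and 8.52% lower) and 77.4% had separate libraries.

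Among the other ligands and receptors of the family, Egf reached at most 0.299 FPKM in any library, Epgn (epigen) 0.536 FPKM and Nrg1 0.0345 FPKM, and Erbb4 was listed at 0 in all 18. Nrg4, a neuregulin, had higher FPKM than Ereg in irradiated vehicle organoids. It was at 3.69, 3.68 and 3.08 FPKM with vehicle and 2.54, 1.62 and 1.79 FPKM with TGFB1 at D7 (log2 change −0.60, SE 0.116, adjusted p = 0.000809), with separate libraries, and at 3.18, 2.84 and 3.26 FPKM with vehicle at D11 and at 1.08, 0.871 and 0.995 FPKM with TGFB1 (log2 change −1.05, SE 0.103, adjusted p = 1.7e-05). The D11 mean of Nrg4 with TGFB1 was 0.981 FPKM, below the filter of 1 FPKM. It entered that test only through the vehicle libraries, so it had to be lower with TGFB1. Of the 38 other genes of the pathway that were listed (sheddases, adaptors, kinases, feedback regulators and targets), 19 rose and 3 fell of 32 tested in non-irradiated organoids, 21 rose and 6 fell of 33 in irradiated D7 organoids, and 9 rose and 7 fell of 33 at D11. Of all genes, 33.3% were higher and 34.9% lower in the first comparison, 35.8 and 39.7% in the second, and 32.3 and 31.6% at D11, where the list's shares in both directions lay below these. The list's median log2 changes were 0.21, 0.34 and 0.02, against −0.02, −0.03 and 0.01 over all genes. This list too was chosen with earlier results of these data known, so its counts and medians are a description only. In the difference tests 14 of 33 were higher and 6 lower after irradiation (25.3 and 27.8% of all genes), and 5 were higher and 16 lower at D11 (31.5 and 33.0% of all genes).

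The largest change of that list was in Fosl1, a MAP kinase target encoding the AP-1 protein FRA1. Its levels were 0.777, 0.845 and 0.699 FPKM against 7.52, 7.78 and 6.95 FPKM without irradiation, 1.84, 2.34 and 3.52 against 20.4, 20.1 and 23.3 FPKM in irradiated D7 organoids, and 1.03, 1.20 and 1.26 against 19.6, 17.7 and 17.1 FPKM at D11. The log2 changes were 2.25, 2.67 and 3.14. Without irradiation the vehicle mean of Fosl1 was 0.774 FPKM, below the filter of 1 FPKM. It entered that test only through the TGFB1 libraries, so it had to be higher there. Phlda1, a target of growth factor signalling, rose by 1.28, 1.78 and 1.38 in the 3 conditions. The MAP kinase phosphatase Dusp4 rose at D7 (1.11 and 1.81), as did the ubiquitin ligase Cblb (1.25 and 1.399) and Ier3 (1.00 and 1.92), and Egr1, an immediate early transcription factor, was above 2-fold after irradiation at D7 (1.32). Etv5, a transcription factor also counted as a MAP kinase target, went the other way (−1.01 in irradiated D7 organoids), and Lrig3 fell at least 2-fold without irradiation and at D11 (−1.06 and −1.02). By D11 Cblb and Ier3 were still called higher (0.87 and 0.89), Dusp4 did not pass (−0.20) and Egr1 was called lower (−0.48).

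Across the 18 bulk libraries, which share the 6 groups, the levels of Tgfa and Egfr had the highest Pearson correlation of any pair of the 10 genes (0.978, on log2(FPKM + 1)), followed by Egfr and Errfi1 (0.951). Areg and Btc followed each other (0.919). The lowest was that of Areg and Erbb2 (−0.752). The genes whose levels were most like each member, among 11473 genes, were Cxadr, Eif4e3 and Pmaip1 for Areg (0.979 to 0.976), Sptan1, Ccl20 and Serpinb9b for Ereg (0.909 to 0.857), Emp1, Sdc1 and S100a14 for Hbegf (0.991 to 0.987), Nmt2, Rhoq and Sept2 for Btc (0.984 to 0.983), and Ctnnb1, Rrad and Ctnnd1 for Tgfa (0.985 to 0.984). They were Ctnnd1 and Ctnnb1 for Egfr (0.995 and 0.994), Tada3, Phldb1 and Iqsec2 for Erbb2 (0.942 to 0.934), Man2b2, Slit2 and Rnf31 for Erbb3 (0.956 to 0.942), Smc4, Sgol2 and Fancd2 for Lrig1 (0.990 to 0.983), and Tnfrsf11b, Xk and Slc25a24 for Errfi1 (0.988 to 0.984). These values describe likeness over 6 groups and carry no test. The groups lie in tables that may have been scaled separately, and the part of scaling in the correlations was not tested.

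In the single-cell libraries of irradiated organoids Egfr was the only one of the 10 genes past 2-fold after 24 h of TGFB1. Values are in CPM, the unique molecular identifiers (UMIs) of a gene summed over kept cells and scaled to the same total in every library, with 1 library per time and so no test. Parentheses give exact 95% Poisson intervals, which cover counting error only. Egfr was at 13.7 (12.3 to 15.1), 16.9 (15.5 to 18.4), 27.2 (25.3 to 29.3) and 31.6 (29.6 to 33.6) CPM at 0, 6, 15 and 24 h. Its level at 24 h was 2.31-fold that at 0 h, 1 of the 9 genes of the family past the expression filter of 5 CPM, where 7.29% of 10078 genes differed 2-fold. At 6 h and 15 h no gene of the family did (2.07 and 3.96% of all genes), with Egfr at 1.99-fold at 15 h.

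Areg was lower at 6 h than at 0 h and higher at 24 h: 255 (249 to 261), 154 (150 to 158), 296 (289 to 302) and 399 (392 to 406) CPM. Errfi1 was already higher at 6 h: 162 (158 to 167), 241 (235 to 246), 280 (274 to 286) and 305 (299 to 311) CPM. Hbegf stood at 206, 187, 296 and 300 CPM, with 15 h and 24 h above the earlier times. Btc (16.8, 15.6, 21.6 and 29.4 CPM) was highest at 24 h, and Tgfa (21.6, 24.4, 27.5 and 30.8 CPM) was higher at 24 h than at 0 h, with overlapping intervals at 15 and 24 h. Erbb2 (64.1, 61.1, 78.4 and 74.6 CPM), Erbb3 (119, 125, 166 and 135 CPM) and Lrig1 (74.2, 61.5, 57.6 and 62.5 CPM) stayed within 1.5-fold of the vehicle library, as did Hbegf and Tgfa. Counting intervals of Lrig1 at 6, 15 and 24 h nevertheless lay below that at 0 h (71.0 to 77.5 CPM). For Erbb2 and Erbb3 the intervals at 15 and 24 h lay above those at 0 h (61.1 to 67.1 and 115 to 123 CPM). Ereg had 4.19 (3.46 to 5.03), 2.34 (1.85 to 2.93), 4.37 (3.61 to 5.25) and 4.96 (4.21 to 5.82) CPM and did not pass the filter. The library at 6 h had the lowest median UMIs per cell (6709) and that at 24 h the highest (10441), and the part of depth in these differences was not tested.

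**Figure D3:**
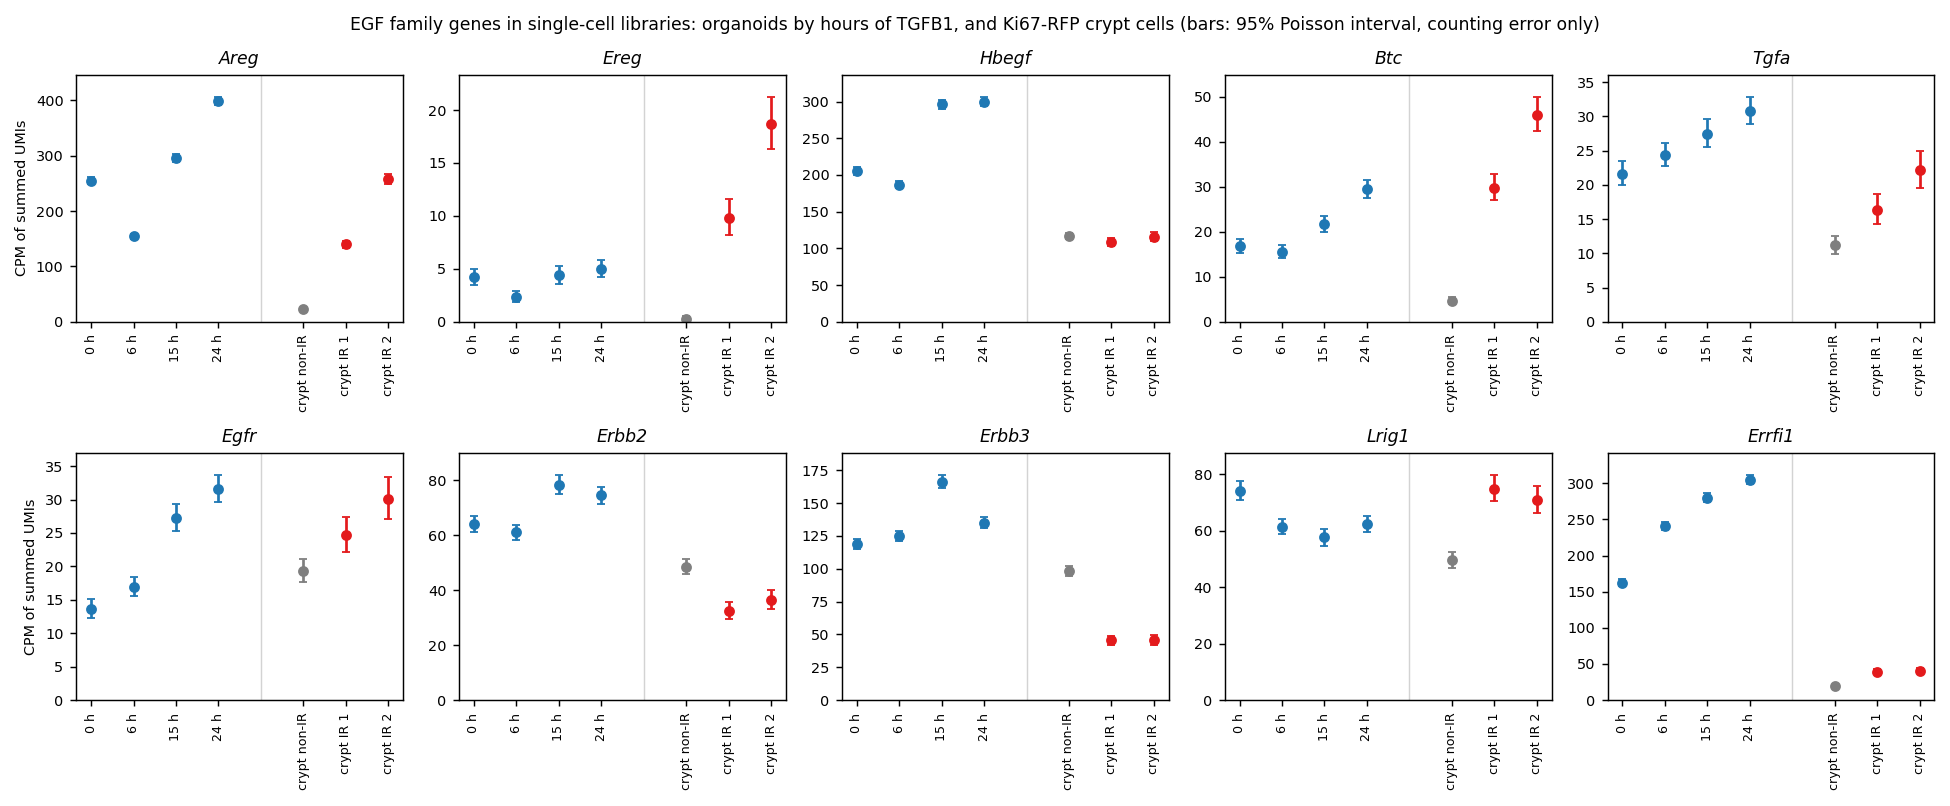
CPM of summed UMIs for the 10 genes in the 7 single-cell libraries; blue points are organoids by hours of TGFB1, grey and red points are Ki67-RFP crypt cells without and with irradiation, and bars are 95% Poisson intervals for counting error only. Egfr increases from 13.7 to 31.6 CPM over 24 h, and Areg, Ereg and Btc are higher in both irradiated crypt libraries than in the control.

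Cells of the organoid libraries were grouped by genes other than the 10 genes and the pathway list, and the level of each of the 10 was read in each group, over all 4 libraries together unless a time is given. The regenerative-like cluster 8, led by Anxa1, Anxa8 and Lgals3, held 11, 33, 137 and 240 cells at 0, 6, 15 and 24 h, and had the highest pooled Egfr (131 CPM) and Btc (90.4 CPM). Its cells are mostly late, so the order was also read within libraries: Egfr was 161 CPM (143 to 181) in cluster 8 and 77.5 CPM (59.8 to 98.8) in the next highest, cluster 9, at 15 h, and 113 (104 to 123) and 57.4 CPM (42.6 to 75.7) at 24 h. For Btc the intervals of these clusters overlapped at 15 h (101 and 83.5 CPM) and not at 24 h (83.8 and 47.1 CPM), and at 0 h, when cluster 8 had too few cells, cluster 9 was highest (103 CPM). Cluster 9, unnamed and led by Ada, Pnliprp2 and Sprr1a, had Areg at 663 CPM (638 to 690), within counting error of the 660 CPM of cluster 8, and the highest Ereg (21.0 CPM). Cluster 8 made up 3.42% of the cells and 35.8% of the Egfr UMIs, 26.6% of the Btc UMIs and 14.7% of the Areg UMIs. Its cells had the highest median UMIs of any organoid cluster (13864), 1.60 times the median of their libraries. These UMI shares therefore exceed its share of cells in part through depth, which the CPM values take into account. In the enterocyte-like cluster 1 Areg was at 379 CPM and Egfr at 5.93 CPM, whereas the stem-like cluster 3 (Lgr5 and Olfm4 among its leading genes) had 69.3 CPM of Areg and 24.1 CPM of Egfr. Lrig1 was highest in the mitotic cluster 2 (127 CPM) and the stem-like cluster 3 (125 CPM) and lowest in cluster 9 (16.6 CPM). Clusters 6 and 11, led by small RNA genes and by ribosomal pseudogenes, were left unnamed, and 666 of the 888 cells of cluster 6 came from the 24 h library.

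At each time 9 clusters had at least 50 cells in both libraries compared. The S-phase cluster 7 was among them only at 6 h and cluster 6 only at 15 and 24 h, and the regenerative-like cluster 8 was in none, so the sets differ between times. Errfi1 was higher than at 0 h in 9 of 9 at 6, 15 and 24 h (median ratios 1.397, 1.63 and 1.64). Areg was lower in 8 of 9 at 6 h (median ratio 0.626) and higher in 9 of 9 at 24 h (1.29). Egfr was higher in 5 of 9 clusters at 24 h (median ratio 1.36). In the enterocyte-like cluster 1, the Areg level was 412 CPM at 0 h, 214 CPM at 6 h, 399 CPM at 15 h and 570 CPM at 24 h. These clusters share their libraries and are not replicates.

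**Figure D4:**
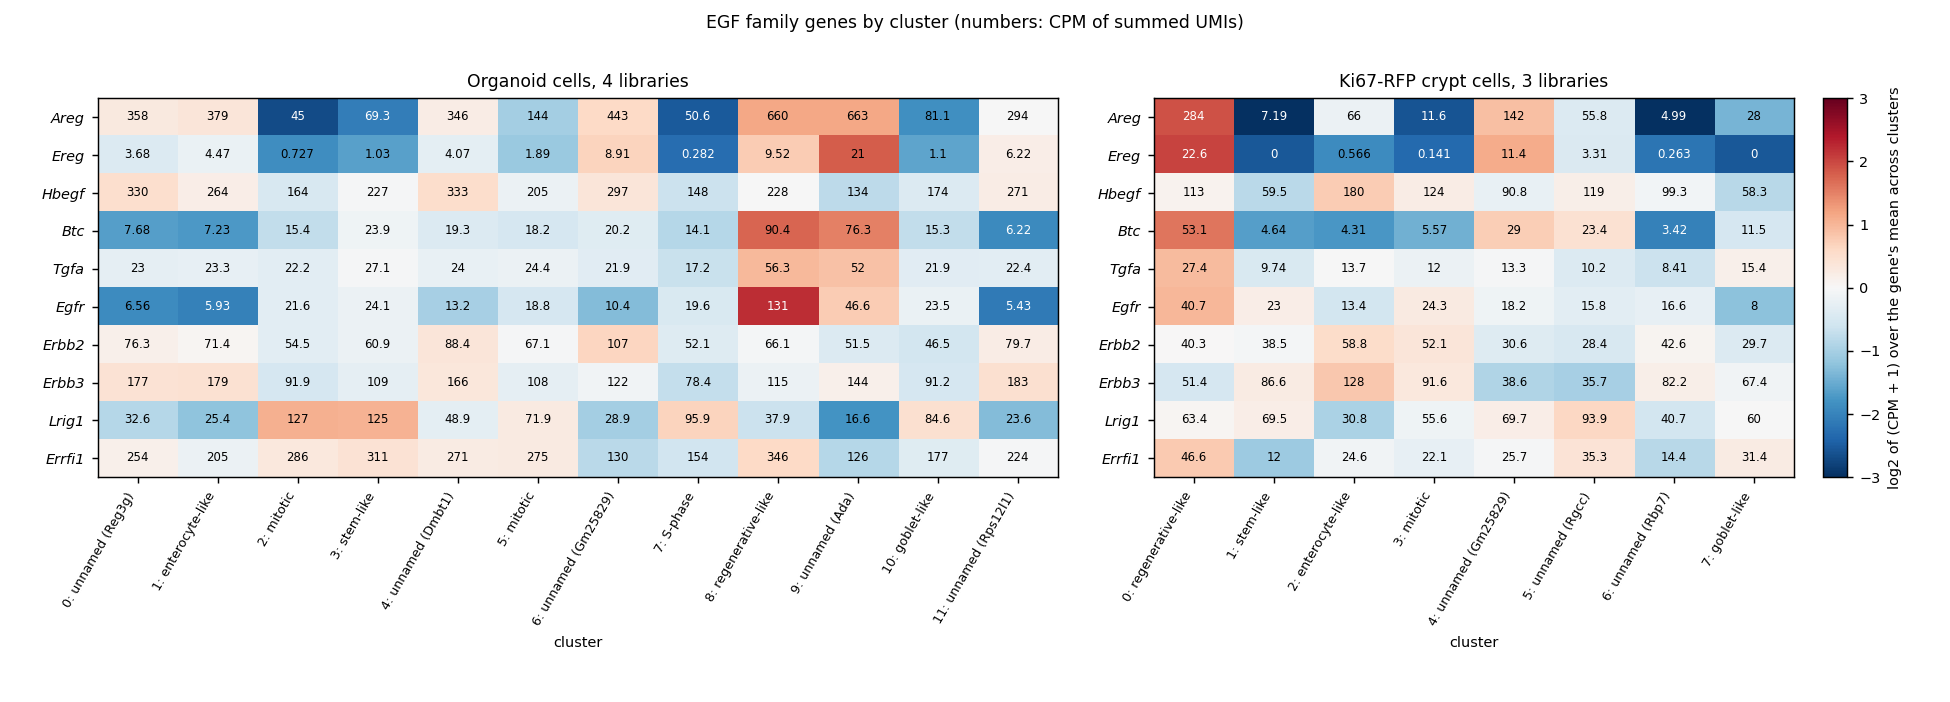
CPM of the 10 genes by cluster (clusters of 50 or more cells) in organoid cells, left, and Ki67-RFP crypt cells, right; colour is the log2 of CPM + 1 relative to the gene's mean over clusters. Egfr is highest in the regenerative-like organoid cluster 8 (131 CPM), and among the crypt clusters plotted Areg, Ereg and Btc are highest in the regenerative-like cluster 0 (284, 22.6 and 53.1 CPM).

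In Ki67-RFP crypt cells 56 h after 12 Gy, the ligands Areg, Ereg and Btc and the inhibitor Errfi1 were at least 2-fold higher in both irradiated libraries than in the control library, and Erbb3 was at least 2-fold lower. With 1 control library there is no test. These 5 of the 10 genes compare with 15.1% of 10364 genes past the same bar (10.4% higher and 4.70% lower). Areg was at 22.2 CPM (20.4 to 24.1) in the control and at 140 (134 to 147) and 258 CPM (249 to 267) after irradiation, 6.31-fold and 11.6-fold higher. Btc was at 4.66 (3.86 to 5.57), 29.8 and 46.0 CPM. Ereg had 7 UMIs in the control (0.272 CPM, 0.109 to 0.560) and 9.83 and 18.7 CPM after irradiation, and passed the expression filter only through the irradiated libraries, so that it had to differ. Btc was below the filter of 5 CPM in the control as well.

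Errfi1 was at 19.1 (17.5 to 20.9), 39.2 and 40.7 CPM, and Erbb3 at 98.3 (94.5 to 102), 45.4 and 45.8 CPM. Tgfa (11.1, 16.3 and 22.1 CPM) and Egfr (19.3, 24.7 and 30.2 CPM) were higher in both irradiated libraries by less than 2-fold, as was Lrig1 (49.5, 74.9 and 70.9 CPM). Erbb2 was lower in both (48.6, 32.6 and 36.4 CPM). Hbegf hardly differed (117, 109 and 116 CPM). The intervals of the 2 irradiated libraries did not overlap for Areg, Ereg, Btc and Tgfa, all higher in the second library.

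In the crypt cells the regenerative-like cluster 0 held only cells of the irradiated libraries (286 and 371 cells), and the stem-like cluster 1 (led by Olfm4 and others) only cells of the control (535 cells), so a cluster here may be a library rather than a cell type. Areg was at 7.19 CPM (5.30 to 9.53) in cluster 1 and at 238 CPM and 319 CPM in the 2 libraries of cluster 0. In cluster 5, unnamed and from the irradiated libraries, Areg was at 50.9 and 64.6 CPM, and in the non-irradiated cells of the enterocyte-like cluster 2 at 49.8 CPM. The highest Areg of any crypt cluster was 1264 CPM (1154 to 1382) in cluster 8, which had only 44 cells (3, 9 and 32 from the control and the 2 irradiated libraries) and was left unnamed (leading genes Apoc2, Cyp3a11 and Apoa4). Lrig1 differed less between these clusters, with 69.5 CPM in cluster 1 and 60.2 and 65.7 CPM in the libraries of cluster 0. The regenerative markers summed to 54.4 CPM in the control library and to 697 and 863 CPM in the irradiated ones, the enterocyte markers to 4346, 825 and 2565 CPM, and the immune markers to 12.5, 31.9 and 36.2 CPM. Their part in the differences of the 10 genes was not tested.

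Of the 38 other pathway genes, 32 passed the filter in the crypt libraries, 8 were at least 2-fold higher in both irradiated libraries and 0 lower, where 10.4% of all genes were higher and 4.70% lower. Of these 8, 5 were below 5 CPM in the control and passed the filter through the irradiated libraries, so they had to be higher, Fosl1 and Etv5 among them. Fosl1 was at 1.24 CPM in the control and at 10.6 and 14.4 CPM after irradiation, Phlda1 at 25.2, 172 and 167 CPM, and Etv5 at 3.12, 18.9 and 16.1 CPM. In organoids Cblb was 2.75-fold higher than vehicle at 6 h, 3.09-fold at 15 h and 2.92-fold at 24 h, Ier3 was 3.29-fold and Fosl1 2.37-fold higher at 24 h, and Etv5 was 2.12-fold lower at 15 h. Fosl1 was below 5 CPM at 0 and 6 h (4.10 and 4.63 CPM). It passed the filter only through the libraries at 15 and 24 h (8.17 and 9.70 CPM), so its rise is not support for a change.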

How the data were processed

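The 10 genes, the pathway list and the marker lists were chosen with earlier results of these data known. Groups follow the labels, and every column of the 3 expression tables has its sample. The bulk values are FPKM deposited by the authors, 1 table for each condition, and the submitters' processing notes name TopHat2 2.1.0 and Cuffnorm 2.2.1 among their tools. Expected counts of UMIs are what the deposited single-cell files contain, with 8.65 to 22.0% of UMIs in fractional entries, and the notes name STARsolo and STAR 2.7.10a. These were summed without rounding. No source names the role of each tool or which build goes with which file. The 18 ATAC libraries were not analysed here.

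FPKM were tested with limma 3.58.1 (R 4.3.3, limma-trend with robust empirical Bayes) on log2(FPKM + 1), for genes averaging 1 FPKM or more, two-sided, Benjamini-Hochberg adjusted over all genes tested, within a table or, for differences of TGFB1 effects, over 12 libraries. Levels across tables had no test. The method was tested on simulated data. Cells were kept from 500 UMIs and 250 genes up if mitochondrial UMIs were 20% or less, doublets were called with Scrublet (0.286 to 1.56% of cells) and left in, and clusters were made with scanpy 1.11.5 and leidenalg 0.10.2 (2000 variable genes without the 10 genes and the pathway list, 30 components, 15 neighbours, resolution 0.6). A cluster took the name of its best marker list where the median fold of that list was at least 2. It stayed unnamed where over 4 of its top 10 genes were noncoding, mitochondrial or pseudogenes, or where it had under 50 cells, limits set after the data were seen.

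Genes named were all 10 members, the listed pathway genes called and at least 2-fold in a TGFB1 comparison, Egf, Epgn, Nrg1, Nrg4 and Erbb4, and for each member the 3 genes with the highest Pearson correlation over 18 libraries, of which 1 is not reported here. Alternatives were another pseudocount, no filter, other scalings, 1 fit of all libraries, a replicate block, each library left out, and other cell filters.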

Additional observations from a re-analysis of the deposited data

Results flagged for a closer look

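The TGFB1 effect differed between irradiated and non-irradiated D7 organoids by a direct test of the difference for 7 of the 10 genes, in log2 units: Areg (1.29), Ereg (1.65), Btc (0.65), Egfr (0.28), Erbb3 (0.24), Lrig1 (−0.25) and Errfi1 (−0.26). It differed between D11 and D7 of irradiated organoids for 7 genes: Areg (−1.93), Hbegf (−0.73), Btc (−0.96), Tgfa (−0.52), Egfr (−1.34), Erbb3 (−1.17) and Lrig1 (0.94). Of all genes tested, 53.1 and 64.5% differed in these 2 tests. Groups of 3 libraries are too small for a check of single libraries that stand apart.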

How the results depend on the processing

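Of 720 repeats of the member tests under alternative settings, 690 kept their direction and their side of the threshold, 10 lost the call, 9 gained it and 11 changed sign. The sign changes were all in differences that did not pass: with each library left out in turn, Areg at D11 ranged from −0.29 to 0.0543, the irradiation difference of Erbb2 from −0.0099 to 0.0538 and the day difference of Ereg from −0.12 to 0.0763, which was also 0.0203 with a pseudocount of 0.1 and 0.0539 with quantile normalization, where the day difference of Errfi1 was 0.0483. The cause was not tested. Asking for at least 2-fold as well left 3, 1, 2 and 3 of the 10 genes called (non-irradiated, D11, irradiation difference and day difference) and 6, 7, 4, 1 and 5 of the pathway list over the 5 tests. At 1.5-fold, the level counts across tables became 4, 5, 2 and 4. With a library left out, irradiated vehicle D11 against D7 gave 0 to 1 genes (1 without D7 vehicle replicate 1 or D11 vehicle replicate 3), and quantile normalization gave 1 gene for the TGFB1 groups of those days. At 15 h, 1 gene passed 2-fold with whole-number entries only and 1 with doublets left out. Replicate numbers showed no clear pairing of the libraries, though deviations from means of 3 cannot exclude one. Same-number deviations correlated at −0.087 to 0.211, above 0.1 in 2 of 9 pairs, and 4 of 9 vehicle libraries were closest to their own number. The replicate block gave 9, 9, 8, 8 and 7 member calls against 9, 9, 8, 7 and 7 without it, the added one being the irradiation difference of Tgfa (adjusted p = 0.035). Peaks at the promoters were not run, since the build of the peak lists is not that of the promoter table. The depth of the bulk libraries is unknown, and single-cell intervals cover counting error only.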
